A study of Mus musculus with 12 samples.

Results

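Fibroblast growth factors (FGFs) are secreted signals that bind receptor tyrosine kinases on the cell surface and switch on the RAS, RAF, MEK and ERK kinases inside the cell. In mouse embryonic stem cells, Fgf4 made by the cells themselves acts through Fgfr1 and Fgfr2 and pushes them out of the naive state, which is why naive cultures contain an inhibitor of MEK. Fgf5 is a standard marker of the epiblast after implantation, and Fgf8, Fgf15 and Fgf17 are used as signals in the gastrulating and patterning embryo. The genes described here are 5 ligands (Fgf4, Fgf5, Fgf8, Fgf15 and Fgf17), 4 receptors (Fgfr1, Fgfr2, Fgfr3 and Fgfr4) and Fgfbp1, a secreted protein that carries FGFs away from the extracellular matrix. They were found by their symbols, 1 locus each, which gives 10 of 23136 named loci.

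Polyadenylated RNA of C57 Bl/6J mouse pluripotent cells was sequenced in 12 libraries, 3 in each of 4 groups. EpiLC are wild-type epiblast-like cells, made from stem cells on fibronectin over 48 h with Fgf2 at 12 ng/ml, Activin A at 20 ng/ml and serum replacement at 1%. Sirt1KO Otx2KD are embryonic stem cells (ESC) that lack the deacetylase gene Sirt1 and in which the homeobox gene Otx2 was knocked down. Sirt1KO are ESC that lack Sirt1 alone, and the last group is wild-type ESC. The labels give all ESC groups one medium, with LIF, PD0325901 at 1 uM, which blocks MEK, and CHIR99021 at 3 uM, which blocks GSK3. For EpiLC they name neither inhibitor, so EpiLC differ from wild-type ESC at least in state, in the added Fgf2 and Activin A and in the MEK and GSK3 inhibitors. Fibronectin and serum replacement are given here only for EpiLC, and LIF only for ESC. All these differences cannot be told apart in any result, those on ERK response genes included. The labels give neither the deleted part of Sirt1, nor the way Otx2 was knocked down, nor the number of clones, nor whether replicates were separate cultures, so the spread behind each p-value is that of these libraries alone and may be no more than technical.

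Values are FPKM (fragments scaled by transcript length and by library size), a level per transcript length, so levels of different genes can be set side by side. Differences are on the log2(FPKM + 1) scale with their standard error (SE), which understates the change of low genes. They come from limma fitted to 12320 named loci with at least 1 FPKM in at least 3 libraries, and a gene was called at a Benjamini-Hochberg adjusted p under 0.05. Counts were not used here, and the depths estimated from low values lay between 0.767 and 1.33 times that of the first wild-type ESC library. Sirt1 stood at 33.2 ± 1.24 FPKM in EpiLC, 15.6 ± 0.492 in Sirt1KO Otx2KD, 15.5 ± 0.196 in Sirt1KO and 25.8 ± 0.412 in wild-type ESC (mean ± SD, n = 3 each, as in all means below), so RNA from this locus was lower and not absent in both knockout groups. Otx2 stood at 100.2 ± 3.45 FPKM in EpiLC, 6.07 ± 0.401 in Sirt1KO Otx2KD, 27.0 ± 6.36 in Sirt1KO and 7.38 ± 0.458 in wild-type ESC. Pou5f1, a marker of all these cells, had group means between 604 and 660.2 FPKM. Summed over 12 genes of the naive state, libraries held 448 to 459.7 FPKM in EpiLC, 1917 to 1951 in Sirt1KO Otx2KD, 1337 to 1556 in Sirt1KO and 1839 to 1893 in wild-type ESC. Whole chromosomes also stood apart: the median log2 difference of the 680 tested loci of chromosome 8 was 0.40 in EpiLC, 0.36 in Sirt1KO Otx2KD and 0.46 in Sirt1KO, each against wild-type ESC, and that of the 1039 loci of chromosome 11 was -0.46, -0.39 and -0.49 in the same order. The 3 tested loci of chromosome Y stood further apart, with medians of -2.01, -3.60 and -3.91 in the same order. Whether the groups differ from wild-type ESC in more than their labels state was not tested, nor was the cause of these shifts. Fgfr1 lies on chromosome 8, and no gene of the family described here lies on chromosome 11 or Y.

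RefSeq promoter windows (250 bases before to 50 after a gene start, GRCm38.p6) were at hand for 6 of the 10 genes. Those of Fgf4, Fgf5 and Fgfr2 are shown, Fgf4 as the most abundant ligand and Fgf5 and Fgfr2 as the ligand and the receptor with a window that differed most between groups, and because they contrast in their content of CG dinucleotides, which are in capitals. Each is written along the strand of its gene.
Fgf4, chr7:144861136-144861435, plus strand: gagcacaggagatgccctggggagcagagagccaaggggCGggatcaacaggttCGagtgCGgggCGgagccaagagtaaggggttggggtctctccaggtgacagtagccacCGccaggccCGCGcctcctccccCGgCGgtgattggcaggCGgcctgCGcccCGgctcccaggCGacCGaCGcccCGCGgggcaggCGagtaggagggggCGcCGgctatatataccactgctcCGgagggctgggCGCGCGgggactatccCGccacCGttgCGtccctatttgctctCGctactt
Fgf5, chr5:98253934-98254233, plus strand: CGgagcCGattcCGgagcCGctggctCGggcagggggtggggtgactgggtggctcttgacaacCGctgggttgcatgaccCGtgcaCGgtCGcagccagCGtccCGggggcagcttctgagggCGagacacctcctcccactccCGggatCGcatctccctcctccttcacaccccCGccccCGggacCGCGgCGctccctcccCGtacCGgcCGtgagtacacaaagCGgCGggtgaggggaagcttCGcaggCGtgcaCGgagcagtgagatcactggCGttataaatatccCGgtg
Fgfr2, chr7:130266759-130267058, minus strand: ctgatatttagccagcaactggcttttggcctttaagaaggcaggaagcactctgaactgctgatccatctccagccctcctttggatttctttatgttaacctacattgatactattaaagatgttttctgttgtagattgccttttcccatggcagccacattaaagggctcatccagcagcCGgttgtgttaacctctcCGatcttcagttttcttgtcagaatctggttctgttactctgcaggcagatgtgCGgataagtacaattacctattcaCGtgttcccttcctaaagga

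The Fgf4 and Fgf5 windows held 28 and 29 CG dinucleotides, the Fgfr2 window held 4 and so did that of Fgfbp1. The median over all windows of the table was 7, with quartiles of 3 and 20. The window of Fgfr4 held 20 CG dinucleotides, and the 2 listed windows of Fgfr3 held 26 and 30. These counts describe the windows and were not tested against expression. None of the windows of the 6 genes held, on either strand, the letters TAATCC (a site of the homeodomain class of Otx2, in 7.06% of 32851 windows), the octamer ATGCAAAT of POU factors (1.74%), AACAATG of SOX factors (3.78%) or CCGGAAGT of ETS factors (3.89%). That says only that these letters are not in these windows.

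Fgf4 was by far the most abundant ligand in every group, and its values spanned 0.996 log2 units over the 12 libraries, the smallest span of the 7 tested members. It stood at 117, 116 and 115 FPKM in EpiLC, at 225, 230.3 and 221 in Sirt1KO Otx2KD, at 136, 155 and 155 in Sirt1KO and at 179, 179.9 and 185 in wild-type ESC. The 4 groups did not overlap, and their order from high to low was Sirt1KO Otx2KD, wild-type ESC, Sirt1KO and EpiLC. Fgf4 fell in EpiLC against wild-type ESC (log2 difference -0.64 ± 0.04 SE, limma, adjusted p = 1.08e-08) and, by less, in Sirt1KO against wild-type ESC (-0.28 ± 0.04, adjusted p = 6.66e-05). It rose in Sirt1KO Otx2KD against both Sirt1KO (0.60 ± 0.04, adjusted p = 6.12e-08) and wild-type ESC (0.31 ± 0.04, adjusted p = 4.15e-05). Each neighbouring pair in this order passed the test. In bulk RNA such as this, fewer cells of a type and less RNA per cell cannot be told apart.

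Fgf5 was nearly silent in wild-type ESC and was higher in EpiLC and in Sirt1KO. EpiLC held 7.20, 5.87 and 5.28 FPKM, Sirt1KO Otx2KD 0.295, 0.505 and 0.599, Sirt1KO 4.35, 2.30 and 2.41, and wild-type ESC 0.172, 0.174 and 0.212. No 2 groups overlapped. EpiLC were 32.9 times and Sirt1KO 16.2 times as high as wild-type ESC in mean FPKM, with log2 differences of 2.58 ± 0.16 (limma, adjusted p = 4.86e-09) and 1.73 ± 0.16 (adjusted p = 5.28e-07). Fgf5 fell in Sirt1KO Otx2KD against Sirt1KO (-1.43 ± 0.16, adjusted p = 4.73e-06), and EpiLC stood above Sirt1KO (0.85 ± 0.16, adjusted p = 3.62e-04). Sirt1KO Otx2KD and wild-type ESC differed by 0.30 (95% interval -0.07 to 0.67, adjusted p = 0.136), which was not called. That last difference was called with a pseudocount of 0.1 (0.95, adjusted p = 0.00719), where the differences of EpiLC and Sirt1KO from wild-type ESC became 4.43 and 3.39. Sirt1KO replicate 1, which had the highest Fgf5 of its group, also had the highest Otx2, at 34.2 FPKM, and without it the Sirt1KO difference from wild-type ESC was 1.50. The part of that library in the result was measured only by leaving it out.

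Fgf15, whose product acts in the embryo and, from the gut, on bile acid synthesis in the liver, was highest in EpiLC. It stood at 12.1, 11.5 and 10.8 FPKM in EpiLC, at 0.375, 0.0803 and 0.343 in Sirt1KO Otx2KD, at 1.59, 0.825 and 1.01 in Sirt1KO and at 0.308, 0.250 and 0.364 in wild-type ESC. EpiLC lay far above all other libraries and Sirt1KO lay between, while Sirt1KO Otx2KD and wild-type ESC overlapped. The mean in EpiLC was 37.3 times that of wild-type ESC (log2 difference 3.25 ± 0.13, limma, adjusted p = 3.04e-11). The rise in Sirt1KO over wild-type ESC was smaller, at 0.70 ± 0.13 (adjusted p = 2.65e-04), and Fgf15 fell in Sirt1KO Otx2KD against Sirt1KO (-0.75 ± 0.13, adjusted p = 1.64e-04). EpiLC also stood above Sirt1KO (2.56 ± 0.13, adjusted p = 6.79e-10). Sirt1KO Otx2KD differed from wild-type ESC by -0.05 (95% interval -0.35 to 0.24, adjusted p = 0.745), and without Sirt1KO Otx2KD replicate 2 this value was 0.057. With a pseudocount of 0.1 the differences from wild-type ESC were 4.84 in EpiLC and 1.57 in Sirt1KO.

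Fgf17, a close relative of Fgf8, was highest in Sirt1KO and not in EpiLC. EpiLC held 3.03, 3.25 and 3.23 FPKM, Sirt1KO Otx2KD 1.32, 1.74 and 1.48, Sirt1KO 8.26, 9.25 and 9.83, and wild-type ESC 3.00, 3.51 and 2.56. The Sirt1KO libraries lay above all others and the Sirt1KO Otx2KD libraries under all others, while EpiLC and wild-type ESC overlapped. Fgf17 rose in Sirt1KO against wild-type ESC (log2 difference 1.33 ± 0.10, limma, adjusted p = 3.59e-08) and fell in Sirt1KO Otx2KD against Sirt1KO (-2.01 ± 0.10, adjusted p = 1.05e-09). It was also lower in Sirt1KO Otx2KD than in wild-type ESC (-0.68 ± 0.10, adjusted p = 5.23e-05). EpiLC and wild-type ESC differed by 0.06 (95% interval -0.17 to 0.28, adjusted p = 0.606), and EpiLC stood under Sirt1KO by 1.28 on the log2 scale (-1.28 ± 0.10, adjusted p = 5.37e-08). Fgf17 thus differed from Fgf5 and Fgf15 in the direct comparison of EpiLC with Sirt1KO, in which those 2 genes were higher in EpiLC.

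Fgf8 stayed under 1 FPKM in all 12 libraries and did not enter the tests. Its values were 0.457, 0.184 and 0.554 FPKM in EpiLC, 0.187, 0.160 and 0.228 in Sirt1KO Otx2KD, 0.235, 0.206 and 0.106 in Sirt1KO, and 0.198, 0.249 and 0 in wild-type ESC. Every group overlapped with every other. In a fit with no filter on low values, the difference of EpiLC from wild-type ESC was 0.28 ± 0.10 (limma, adjusted p = 0.0341), and those of Sirt1KO and Sirt1KO Otx2KD from wild-type ESC were 0.05 and 0.06.

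**Figure D1:**
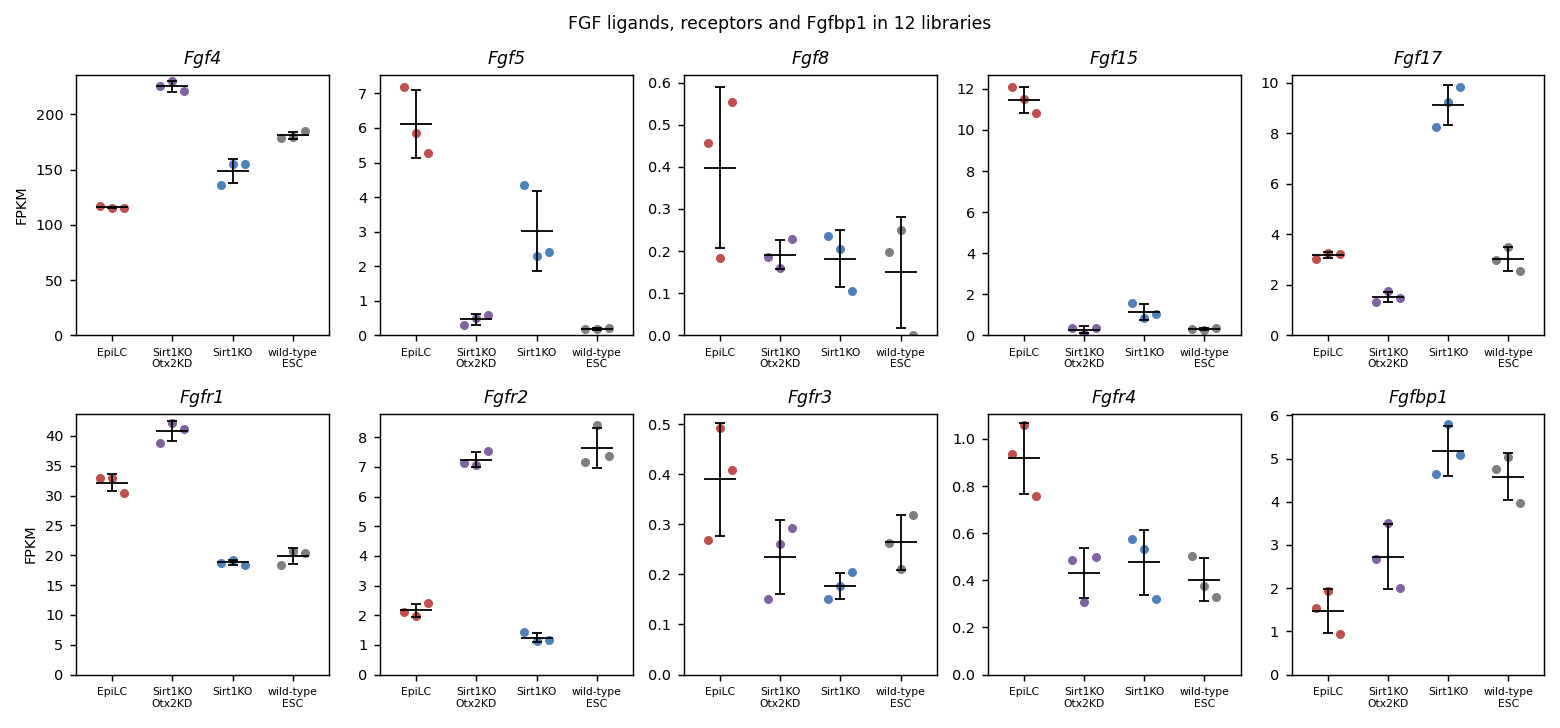
Level of each gene in FPKM (vertical axis, from 0, own scale per panel) in the 3 libraries of EpiLC, Sirt1KO Otx2KD, Sirt1KO and wild-type ESC. Points are libraries, the long bar is the mean and the error bar is 1 SD. Fgf5 and Fgf15 were highest in EpiLC, Fgf17 in Sirt1KO at 9.11 FPKM and Fgfr1 in Sirt1KO Otx2KD at 40.8 FPKM, and Fgfr2 averaged 7.25 FPKM in Sirt1KO Otx2KD and 7.65 in wild-type ESC.

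Among the receptors, Fgfr1, the main FGF receptor of the epiblast, was the most abundant in every group. Its values were 33.0, 32.9 and 30.5 FPKM in EpiLC, 38.9, 42.2 and 41.2 in Sirt1KO Otx2KD, 18.7, 19.2 and 18.4 in Sirt1KO, and 18.3, 20.7 and 20.4 in wild-type ESC. Sirt1KO Otx2KD lay highest and EpiLC next, and Sirt1KO and wild-type ESC overlapped. Fgfr1 rose in EpiLC against wild-type ESC (log2 difference 0.67 ± 0.05, limma, adjusted p = 5.13e-08). It rose in Sirt1KO Otx2KD against Sirt1KO (1.08 ± 0.05, adjusted p = 1.37e-09) and against wild-type ESC (1.01 ± 0.05, adjusted p = 4.51e-09), and it was lower in EpiLC than in Sirt1KO Otx2KD (-0.33 ± 0.05, adjusted p = 6.42e-05). The difference of Sirt1KO from wild-type ESC was -0.07 ± 0.05 (95% interval -0.20 to 0.05, adjusted p = 0.264). Since chromosome 8 as a whole stood 0.46 higher in that comparison, Fgfr1 lay 0.53 under the median of its chromosome (-0.53 with the medians removed, adjusted p = 1.36e-06), and without wild-type ESC replicate 1 the plain difference was -0.12 (adjusted p = 0.0488). With the medians removed, EpiLC still stood above wild-type ESC by 0.27 and Sirt1KO Otx2KD by 0.65, and Sirt1KO Otx2KD above Sirt1KO by 1.18.

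Fgfr2, a receptor that cells of the primitive endoderm and trophoblast also use, separated the groups differently from Fgfr1. It stood at 2.09, 1.98 and 2.42 FPKM in EpiLC, at 7.15, 7.07 and 7.53 in Sirt1KO Otx2KD, at 1.42, 1.14 and 1.18 in Sirt1KO, and at 7.16, 8.43 and 7.37 in wild-type ESC. Sirt1KO Otx2KD and wild-type ESC overlapped, EpiLC lay under both and Sirt1KO lay lowest. Fgfr2 fell in EpiLC (log2 difference -1.45 ± 0.08, limma, adjusted p = 1.58e-09) and in Sirt1KO (-1.95 ± 0.08, adjusted p = 1.80e-10), each against wild-type ESC. In mean FPKM, Sirt1KO was at 0.163 of the wild-type ESC level. Fgfr2 rose in Sirt1KO Otx2KD against Sirt1KO (1.88 ± 0.08, adjusted p = 4.59e-10), where the FPKM ratio was 5.82, and stood higher in EpiLC than in Sirt1KO (0.49 ± 0.08, adjusted p = 1.25e-04). Sirt1KO Otx2KD and wild-type ESC differed by -0.07 (95% interval -0.26 to 0.13, adjusted p = 0.527).

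Fibroblasts and primitive endoderm also express FGF receptors, and their markers moved between the groups. Of 14 fibroblast and feeder genes, 12 averaged at least 1 FPKM in EpiLC, 13 in Sirt1KO Otx2KD, 7 in Sirt1KO and 12 in wild-type ESC, and their sum per library was 85.9 to 91.3, 285 to 291, 22.4 to 31.7 and 145 to 168 FPKM in these groups. Col3a1, a fibrillar collagen, averaged 15.5, 75.2, 2.10 and 36.3 FPKM in the same order, and Fap was at 0 in the Sirt1KO libraries and under 1 FPKM in all others. This sum was highest in Sirt1KO Otx2KD and lowest in Sirt1KO, a pair of groups in which Fgfr1 and Fgfr2 were also higher in Sirt1KO Otx2KD, and its part in the receptor levels was not tested. Of 13 primitive endoderm genes, 5, 6, 5 and 4 averaged at least 1 FPKM in that order, with sums of 143 to 144, 467 to 469, 304 to 350.2 and 528 to 551 FPKM. Sparc alone averaged 95.3, 429, 302 and 517 FPKM of these sums, and without it the other 12 genes summed to 47.7 to 49.0, 37.9 to 40.3, 26.9 to 29.8 and 23.4 to 24.8, highest in EpiLC and lowest in wild-type ESC. Gata4, a defining factor, averaged 1.45, 1.77, 1.13 and 0.445 FPKM in that order, with every wild-type ESC library under all others, while the factors Gata6, Sox17, Sox7 and Foxa2 and the receptor gene Pdgfra were under 1 FPKM in all 12 libraries. Over 9 trophoblast genes, the sums were 21.1 to 24.5, 70.0 to 70.3, 61.4 to 63.2 and 88.2 to 94.7 FPKM in the same order. Over 7 neuroectoderm genes they were 14.5 to 15.1, 25.2 to 27.5, 13.4 to 15.3 and 46.6 to 52.6 FPKM, lowest in the EpiLC and Sirt1KO groups, in which Fgfr2 was also lowest. Only 5, 4, 5 and 5 of the trophoblast genes and 3, 2, 2 and 3 of the neuroectoderm genes averaged at least 1 FPKM in that order. Both sums thus rest on few genes and need not hold for each list as a whole. The part of these lists in the Fgfr2 level was not tested.

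Fgfr3 and Fgfr4 did not reach the filter on low values. Fgfr3 stood at 0.269, 0.493 and 0.408 FPKM in EpiLC, 0.152, 0.260 and 0.293 in Sirt1KO Otx2KD, 0.151, 0.176 and 0.204 in Sirt1KO, and 0.263, 0.210 and 0.319 in wild-type ESC. Fgfr4 stood at 0.936, 1.06 and 0.756 FPKM in EpiLC, 0.486, 0.306 and 0.499 in Sirt1KO Otx2KD, 0.577, 0.534 and 0.319 in Sirt1KO, and 0.504, 0.375 and 0.331 in wild-type ESC. The EpiLC libraries of Fgfr4 lay above all others, while the ESC groups overlapped. In the fit with no filter, Fgfr4 was higher in EpiLC than in wild-type ESC by 0.45 ± 0.10 on the log2 scale (limma, adjusted p = 0.00146). For Fgfr3 the same difference was 0.13 ± 0.07 (adjusted p = 0.111), while Fgfr3 was called higher in EpiLC than in Sirt1KO (0.24 ± 0.07, adjusted p = 0.0105) and than in Sirt1KO Otx2KD (0.17 ± 0.07, adjusted p = 0.0487).

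Fgfbp1, which releases stored FGFs from the matrix, followed an order of its own. Its values were 1.54, 1.94 and 0.931 FPKM in EpiLC, 2.67, 3.50 and 2.01 in Sirt1KO Otx2KD, 4.64, 5.79 and 5.09 in Sirt1KO, and 4.75, 5.03 and 3.97 in wild-type ESC. Sirt1KO and wild-type ESC overlapped, Sirt1KO Otx2KD lay under both and EpiLC lay lowest. Fgfbp1 fell in EpiLC against wild-type ESC (log2 difference -1.19 ± 0.16, limma, adjusted p = 1.54e-05). It fell in Sirt1KO Otx2KD against Sirt1KO (-0.74 ± 0.16, adjusted p = 0.00137) and against wild-type ESC (-0.60 ± 0.16, adjusted p = 0.00710). The difference of Sirt1KO from wild-type ESC was 0.14 (95% interval -0.23 to 0.52, adjusted p = 0.453).

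Most loci of the table were called in each comparison, and the counts of family members stand beside those shares, with no test between them. Of the 10 genes, 7 were tested. Fgf5 and Fgf15 passed the filter on low values only through EpiLC and Sirt1KO libraries. They were under 1 FPKM in every wild-type ESC and Sirt1KO Otx2KD library. Their entry into these counts thus depended on the groups in which they were then called higher, so the counts do not stand for the family. In EpiLC against wild-type ESC, 3 were higher and 3 lower, where 74.6% of all loci were called (35.8% higher and 38.8% lower). In Sirt1KO against wild-type ESC, 3 were higher and 2 lower, where 65.0% were called (32.4% higher and 32.7% lower). In Sirt1KO Otx2KD against Sirt1KO, 3 were higher and 4 lower, where 62.6% were called (31.1% higher and 31.5% lower), and against wild-type ESC 2 were higher and 2 lower, where 53.9% were called (27.1% higher and 26.8% lower). EpiLC had 4 higher and 3 lower than Sirt1KO (69.1% of loci called, 34.0% higher and 35.1% lower) and 3 higher and 4 lower than Sirt1KO Otx2KD (74.3% of loci called, 36.0% higher and 38.2% lower). Called differences of at least 1 log2 unit were found for 4 members in EpiLC and 3 in Sirt1KO, each against wild-type ESC, where 15.1% and 7.61% of all loci had one. In Sirt1KO Otx2KD there were 4 against Sirt1KO and 1 against wild-type ESC, where the shares were 5.71% and 3.24%. EpiLC had 3 such differences from Sirt1KO and 3 from Sirt1KO Otx2KD, where the shares were 9.48% and 16.0%. No overlap between the libraries was seen for 6 tested members between EpiLC and wild-type ESC (76.8% of all loci), for 5 between Sirt1KO and wild-type ESC (68.5%) and for 5 between Sirt1KO Otx2KD and wild-type ESC (61.3%). None was seen for any of the 7 in Sirt1KO Otx2KD against Sirt1KO (67.2% of loci), in EpiLC against Sirt1KO (72.4%) and in EpiLC against Sirt1KO Otx2KD (77.2%). The 3 comparisons with wild-type ESC share their wild-type libraries, and Sirt1KO enters both its own comparison and that of Sirt1KO Otx2KD, so no likeness between these comparisons was computed.

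**Figure D2:**
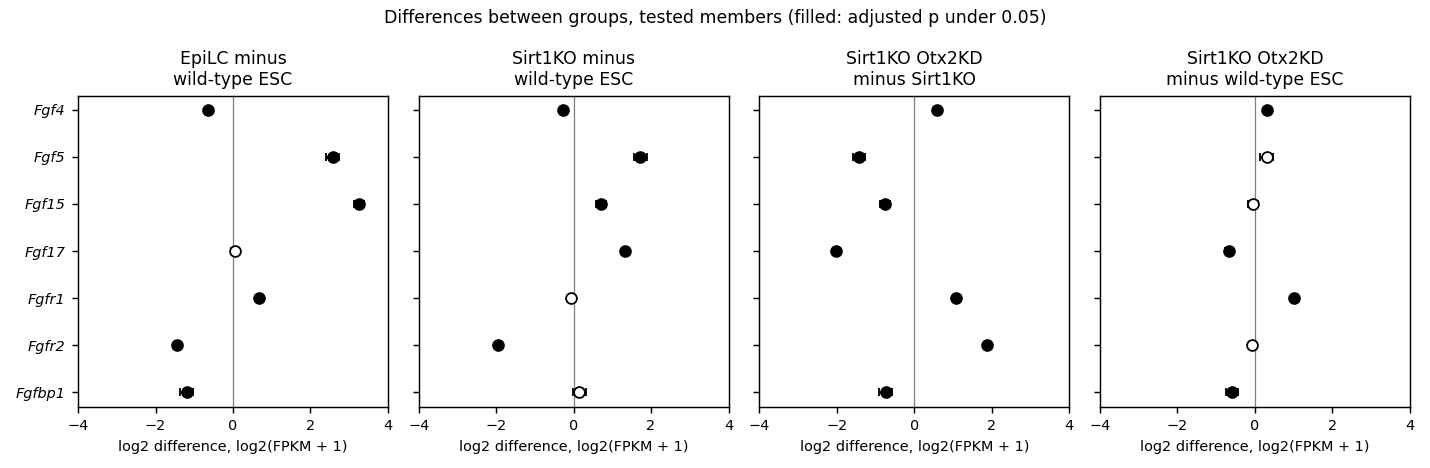
Log2 difference in log2(FPKM + 1) with its SE (horizontal axis) for the 7 tested genes in 4 comparisons, with filled points where the adjusted p was under 0.05. Fgf5, Fgf15 and Fgf17 lie right of 0 in Sirt1KO minus wild-type ESC and left of 0 in Sirt1KO Otx2KD minus Sirt1KO, and Fgf4 and Fgfr2 lie on the opposite sides.

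The makeup of the ligands and of the receptors differed between groups. Fgf4 supplied 84.6% ± 0.812 of the summed FPKM of the 5 ligands in EpiLC, 98.9% ± 0.116 in Sirt1KO Otx2KD, 91.7% ± 1.12 in Sirt1KO and 98.0% ± 0.303 in wild-type ESC. In EpiLC the largest share after Fgf4 was that of Fgf15, at 8.38% ± 0.324, followed by Fgf5 at 4.46% ± 0.638. In Sirt1KO it was that of Fgf17, at 5.61% ± 0.191, followed by Fgf5 at 1.90% ± 0.863. The ligand sum was 137 ± 2.31 FPKM in EpiLC, 228 ± 4.71 in Sirt1KO Otx2KD, 162 ± 10.3 in Sirt1KO and 185 ± 2.82 in wild-type ESC.

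Fgfr1 made up 90.2% ± 0.719 of the summed receptor FPKM in EpiLC, 83.7% ± 0.830 in Sirt1KO Otx2KD, 90.8% ± 0.978 in Sirt1KO and 70.4% ± 1.19 in wild-type ESC. Fgfr2 supplied most of the rest, with 6.09% ± 0.886, 14.9% ± 0.630, 6.02% ± 0.712 and 27.2% ± 1.21 in these groups. The ratio of Fgfr1 to Fgfr2 was 15.0 ± 2.13 in EpiLC, 5.63 ± 0.300 in Sirt1KO Otx2KD, 15.2 ± 1.87 in Sirt1KO and 2.59 ± 0.159 in wild-type ESC. EpiLC and Sirt1KO thus had close ratios at different receptor sums, which were 35.6 ± 1.35 FPKM in EpiLC and 20.7 ± 0.485 in Sirt1KO, beside 48.7 ± 1.75 in Sirt1KO Otx2KD and 28.1 ± 1.78 in wild-type ESC. Fgfr1 lies on chromosome 8, whose median against wild-type ESC was 0.40 in EpiLC, 0.36 in Sirt1KO Otx2KD and 0.46 in Sirt1KO. These shares, ratios and sums were not corrected for that shift.

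**Figure D3:**
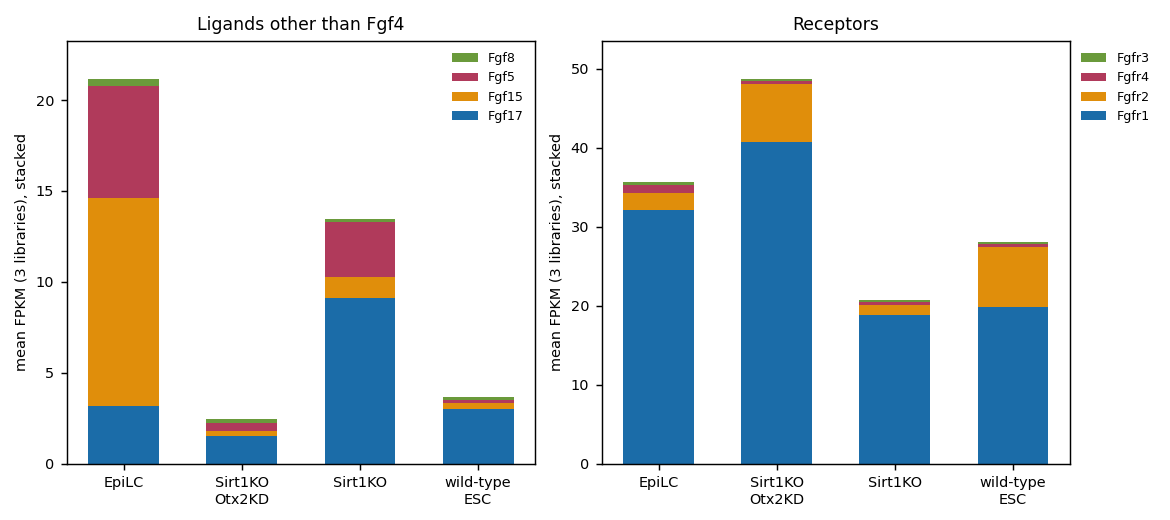
Mean FPKM of 3 libraries (vertical axis, from 0), stacked by gene, for the ligands without Fgf4 (left) and the 4 receptors (right) in EpiLC, Sirt1KO Otx2KD, Sirt1KO and wild-type ESC. Fgf4, at 116 to 225 FPKM, is left out because it would hide the others; Fgf15 fills most of the left bar in EpiLC and Fgf17 most of it in Sirt1KO.

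Fgf4 and Fgf15 lie side by side on chromosome 7, in a neighbourhood picked for description after the values were seen. In the coordinates of the deposited files (mm9), Fgf3 spans 152024517 to 152029253, Fgf4 152047291 to 152051148, Fgf15 152082437 to 152086856, Oraov1 152101099 to 152107042 and Ccnd1, which encodes cyclin D1, 152115836 to 152125830. Fgf3 and Fgf4 are 18037 bases apart, and Fgf4 and Fgf15 are 31288 bases apart. Fgf3, a ligand of the inner ear and primitive streak, averaged 0.740 ± 0.138 FPKM in EpiLC, 2.11 ± 0.206 in Sirt1KO Otx2KD, 1.24 ± 0.285 in Sirt1KO and 3.75 ± 0.332 in wild-type ESC. Like Fgf4, it fell in EpiLC (log2 difference -1.45 ± 0.11, limma, adjusted p = 2.14e-08) and Sirt1KO (-1.09 ± 0.11, adjusted p = 7.07e-07) against wild-type ESC and rose in Sirt1KO Otx2KD against Sirt1KO (0.48 ± 0.11, adjusted p = 0.00141). In Sirt1KO Otx2KD against wild-type ESC the neighbours parted, with Fgf3 lower (-0.61 ± 0.11, adjusted p = 2.76e-04) and Fgf4 higher.

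On the other side of Fgf4, Fgf15 and Ccnd1 went the opposite way. Ccnd1 averaged 44.0 ± 0.778 FPKM in EpiLC, 6.57 ± 0.415 in Sirt1KO Otx2KD, 42.2 ± 1.87 in Sirt1KO and 23.6 ± 0.307 in wild-type ESC. It rose in EpiLC (0.87 ± 0.05, limma, adjusted p = 1.04e-09) and Sirt1KO (0.81 ± 0.05, adjusted p = 4.42e-09) against wild-type ESC and fell in Sirt1KO Otx2KD against Sirt1KO (-2.51 ± 0.05, adjusted p = 1.36e-13). Oraov1, which lies between them, averaged 4.10, 3.52, 4.57 and 4.40 FPKM in EpiLC, Sirt1KO Otx2KD, Sirt1KO and wild-type ESC, and it was called only in Sirt1KO Otx2KD against Sirt1KO (-0.30 ± 0.07, adjusted p = 0.00280) among these 3 comparisons. The median of all 998 tested loci of chromosome 7 lay between -0.04 and 0.04 in these comparisons.

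**Figure D4:**
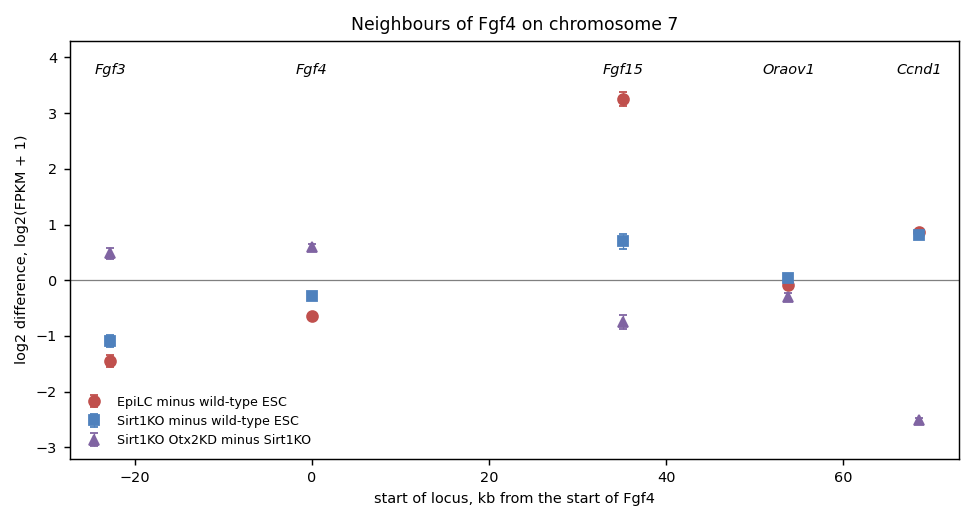
Log2 difference in log2(FPKM + 1) with its SE (vertical axis) for 5 named neighbours on chromosome 7, by the distance of each start from the start of Fgf4 in kb (horizontal axis), in 3 comparisons. Fgf3, 22.8 kb before Fgf4, moved in the direction of Fgf4, and Fgf15 and Ccnd1, 35.1 and 68.5 kb after it, moved in the opposite direction in each of these 3 comparisons; in Sirt1KO Otx2KD against wild-type ESC, which is not drawn, Fgf3 was lower and Fgf4 higher.

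Of the 17 other FGF ligands, only 4 were high enough to be tested, and 1 was higher and 2 lower both in EpiLC and in Sirt1KO against wild-type ESC, where 74.6% and 65.0% of all loci were called. Fgf10, a ligand of limb and lung buds that binds Fgfr2, averaged 0.0918 ± 0.0327 FPKM in EpiLC, 1.16 ± 0.139 in Sirt1KO Otx2KD, 3.50 ± 0.300 in Sirt1KO and 0.346 ± 0.0518 in wild-type ESC. It passed the filter on low values only through Sirt1KO and Sirt1KO Otx2KD libraries. It rose in Sirt1KO against wild-type ESC (log2 difference 1.74 ± 0.09, limma, adjusted p = 9.16e-10) and fell in Sirt1KO Otx2KD against Sirt1KO (-1.06 ± 0.09, adjusted p = 1.95e-07). Fgf10 and Fgf17 were both highest in Sirt1KO, but against wild-type ESC Sirt1KO Otx2KD was higher for Fgf10 (0.68 ± 0.09, adjusted p = 1.93e-05) and lower for Fgf17. Fgf13, an intracellular family member that does not signal through receptors, rose in EpiLC (0.56 ± 0.12, adjusted p = 7.98e-04) and fell in Sirt1KO (-0.47 ± 0.12, adjusted p = 0.00358). Fgf2, the ligand added to the EpiLC medium, was at 0.175 ± 0.188 FPKM in EpiLC and 0.0669 ± 0.116 in wild-type ESC.

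Of 9 coreceptors and binding proteins, 8 were found and 5 tested, with 3 higher and 1 lower in EpiLC, 3 higher and 1 lower in Sirt1KO (each against wild-type ESC), and 1 higher and 2 lower in Sirt1KO Otx2KD against Sirt1KO, beside 74.6%, 65.0% and 62.6% of all loci called. Fgfbp3, a relative of Fgfbp1, averaged 3.19 ± 0.353 FPKM in EpiLC, 0.449 ± 0.0438 in Sirt1KO Otx2KD, 1.28 ± 0.291 in Sirt1KO and 0.232 ± 0.129 in wild-type ESC. It passed the filter on low values only through EpiLC and Sirt1KO libraries. It rose in EpiLC (1.77 ± 0.11) and Sirt1KO (0.89 ± 0.11), so the pair of binding proteins differed, since Fgfbp1 fell in EpiLC and was not called in Sirt1KO. Flrt3, a membrane protein that binds FGF receptors, rose in Sirt1KO (0.87 ± 0.10, adjusted p = 3.51e-06), and Flrt2, of the same family, fell there (-0.62 ± 0.09). Glg1, a Golgi protein that binds FGFs, rose in EpiLC (0.73 ± 0.04) and Sirt1KO (0.43 ± 0.04), but it lies on chromosome 8, and with the chromosome medians removed the values were 0.33 in EpiLC and -0.030 in Sirt1KO.

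Inside the cell, adaptors and kinases of the cascade were called in both directions, as were all loci, of which 74.6%, 65.0% and 62.6% were called in the 3 comparisons given here. Of 13 adaptors that join receptors to RAS, 12 were tested, with 6 higher and 2 lower in EpiLC, 5 higher and 4 lower in Sirt1KO, and 6 higher and 4 lower in Sirt1KO Otx2KD against Sirt1KO. Grb2, which links the receptor complex to RAS, averaged 24.3 ± 1.16 FPKM in EpiLC, 39.5 ± 1.41 in Sirt1KO Otx2KD, 24.7 ± 0.629 in Sirt1KO and 47.4 ± 4.48 in wild-type ESC. It fell in EpiLC (-0.93 ± 0.06) and Sirt1KO (-0.91 ± 0.06) against wild-type ESC, and it lies on chromosome 11. Gab1, a docking protein on chromosome 8, rose in EpiLC (0.72 ± 0.03) and Sirt1KO (0.90 ± 0.03). With the chromosome medians removed, the values were -0.48 and -0.42 for Grb2 and 0.32 and 0.44 for Gab1 in these comparisons, and all were still called. Crk, on chromosome 11, fell in Sirt1KO by 0.31 on the log2 scale (-0.31 ± 0.04), and with the chromosome medians removed it was 0.18.

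For the 14 genes of the RAS to ERK cascade, 14 loci were tested, with Map2k1 at 2 of 15 loci. In EpiLC 7 were higher and 4 lower, in Sirt1KO 4 higher and 5 lower, and in Sirt1KO Otx2KD against Sirt1KO 6 higher and 3 lower. Beside these counts, 74.6%, 65.0% and 62.6% of all loci were called in the same order. Ksr1, a scaffold of the cascade on chromosome 11, stood at 1.38 ± 0.199 FPKM in EpiLC, 6.62 ± 0.267 in Sirt1KO Otx2KD, 1.35 ± 0.155 in Sirt1KO and 8.32 ± 0.589 in wild-type ESC. Its fall in EpiLC (-1.97 ± 0.08) and Sirt1KO (-1.99 ± 0.08) was larger than the chromosome median, with -1.51 and -1.50 left once the medians were removed.

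Genes that ERK signalling switches on, many of which feed back on it, formed the last list. Of 20 such genes, 18 were tested. Of the 20, 18 averaged at least 1 FPKM in EpiLC, 16 in Sirt1KO Otx2KD, 17 in Sirt1KO and 13 in wild-type ESC. Some genes low in wild-type ESC thus entered the tests through groups in which they were higher, which bears on the counts below. In EpiLC against wild-type ESC 12 were higher and 4 lower, with a median log2 difference of 1.05, where that of all loci was -0.02. In Sirt1KO against wild-type ESC 12 were higher and 4 lower, with a median of 0.69, where that of all loci was 0.01. In Sirt1KO Otx2KD against Sirt1KO 2 were higher and 12 lower, with a median of -0.80, where that of all loci was -0.01. Of all loci, 35.8% were called higher and 38.8% lower in EpiLC, and 32.4% and 32.7% in Sirt1KO, each against wild-type ESC. The shares in Sirt1KO Otx2KD against Sirt1KO were 31.1% higher and 31.5% lower. Against wild-type ESC, Sirt1KO Otx2KD had 6 higher and 7 lower, with a median of -0.18, where that of all loci was -0.00095. There 53.9% of all loci were called, 27.1% higher and 26.8% lower.

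Among these genes, Spred1, an inhibitor of RAF activation, averaged 25.7 ± 1.65 FPKM in EpiLC, 2.64 ± 0.284 in Sirt1KO Otx2KD, 8.65 ± 0.608 in Sirt1KO and 2.56 ± 0.132 in wild-type ESC. Dusp6, a phosphatase that switches ERK off, averaged 65.5 ± 0.528 FPKM in EpiLC, 3.80 ± 0.406 in Sirt1KO Otx2KD, 20.8 ± 5.72 in Sirt1KO and 4.96 ± 0.463 in wild-type ESC. Both fell in Sirt1KO Otx2KD against Sirt1KO (-1.41 ± 0.08 for Spred1 and -2.16 ± 0.14 for Dusp6). The early response gene Fos had its lowest level in EpiLC, at 6.53 ± 1.12 FPKM, beside 14.4 ± 1.42 in Sirt1KO Otx2KD, 46.5 ± 3.46 in Sirt1KO and 36.9 ± 1.90 in wild-type ESC. Spred2, of the family of Spred1, had its lowest level in Sirt1KO, with 19.6 ± 0.590 FPKM in EpiLC, 7.24 ± 0.899 in Sirt1KO Otx2KD, 5.83 ± 0.752 in Sirt1KO and 14.0 ± 0.321 in wild-type ESC.

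**Figure D5:**
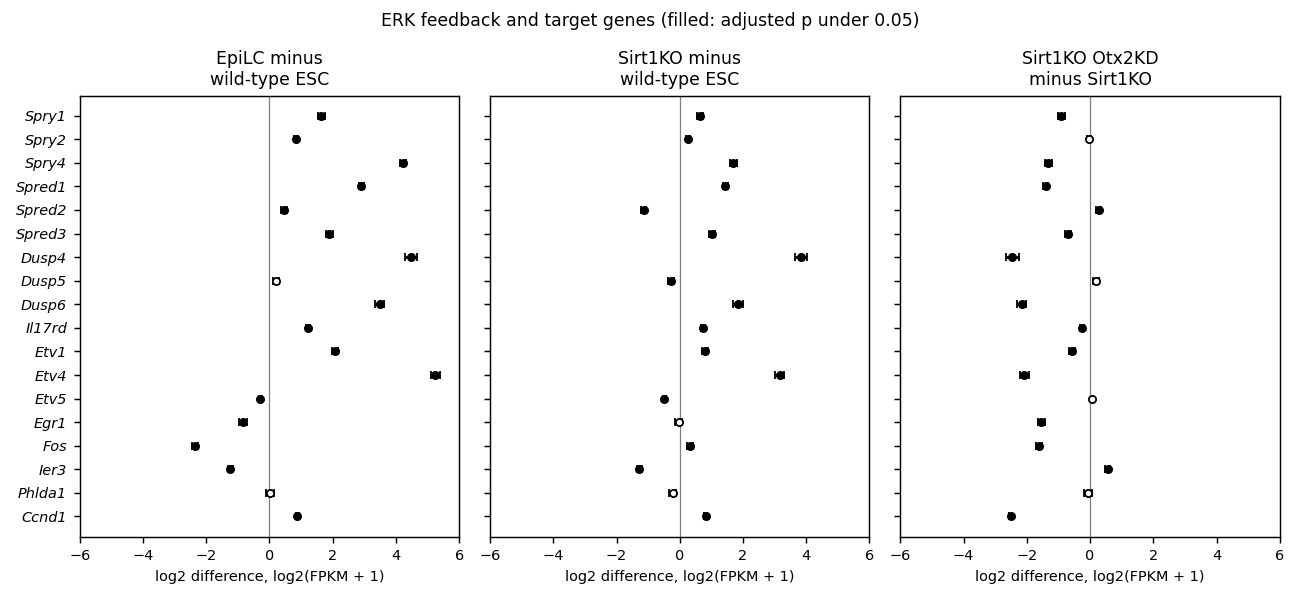
Log2 difference in log2(FPKM + 1) with its SE (horizontal axis) for the 18 tested genes of ERK feedback and response in 3 comparisons, with filled points where the adjusted p was under 0.05. In EpiLC and in Sirt1KO, each minus wild-type ESC, 12 genes were called right of 0, and in Sirt1KO Otx2KD minus Sirt1KO 12 were called left of it. Of all loci, 35.8% and 32.4% were called right of 0 in EpiLC and Sirt1KO, and 31.5% left of it in Sirt1KO Otx2KD.

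For each tested member, the 3 genes with the most similar pattern were taken from 8295 candidates, by the root mean square difference of log2 values over 12 libraries after each gene was centred on its mean. Fgf4 had the closest matches, Ggta1, Mtf1 and Gtf2h1, with Ggta1 at 0.0646 log2 units while Fgf4 itself spanned 0.996. Fgf5 was followed by Smarca1 (0.186), Mapk4 and Lrp2, and Fgf15 by Adam23 (0.234), Enpp3 and Lpar4. Fgf17 was followed by Gpr56 (0.229), Emp1 and Lefty1. Fgfr1 came with Zmiz1 (0.115), Itga5 and Itga3, and Fgfr2 with Cotl1 (0.129), D8Ertd82e and Tuba3a. Fgfbp1 came with Mylip (0.187), Rac3 and Myl7. The rank of Otx2 in these lists was 34 for Fgf15 and 190 for Fgf5, and between 8095 and 8281 for the others. The distance was not scaled to the spread of each gene. A gene of wide range such as Otx2 is thus far from a member of narrow span such as Fgf4 whatever its pattern. These distances describe the 12 libraries, which share their groups, and carry no test.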

How the data were processed

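The 12 libraries were grouped by their titles, 3 per group, from polyadenylated RNA made into TruSeq libraries per the labels' protocols. The authors deposited FPKM for each locus; per the submitters' processing notes the tools were TopHat, Cufflinks and Cuffdiff with mm9, of which no versions are given, and how library sizes were set is not given in the sources used here. Each library held 27914 loci, and the 4778 without a gene name, which took 95.3% to 96.9% of the FPKM sum, were left out of the tests. Starts of loci were written counting from 1.

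Values were log2(FPKM + 1). With limma 3.58.1 (R 4.3.3; trend and robust), group means were estimated from the 12 libraries together, leaving 8 residual degrees of freedom, which also set the 95% intervals, for loci with at least 1 FPKM in at least 3 libraries, and tested in 6 comparisons with Benjamini-Hochberg adjustment over all 12320 loci. The fit was tested on simulated data first. Relative depth was estimated from the most frequent ratio of values under 0.1 FPKM between each library and the first wild-type ESC library. Steps of whole fragments, sought afterwards with these depths, were found for 2040 loci and for none of the 10 members. So no count test was run, and depth-based intervals are not given. Between replicates, the mean chi-square per low locus was 0.961 to 1.04, where 1 is counting noise. Such low loci say little about abundant genes, and no library files were identical.

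The members and all gene lists were chosen with earlier results of these data known. Named genes are all 10 members, Sirt1, Otx2 and Pou5f1, up to 4 tested genes of each pathway list with the largest moderated t in a comparison, and the 3 genes most like each member; neighbours on chromosome 7 and genes named only by their level were chosen after their values were seen. Markers of fibroblasts, primitive endoderm and the naive state are given in the report. Libraries summed to 1042 to 1081, 94.9 to 101, 249 to 351 and 102 to 112 FPKM over 9 primed genes in EpiLC, Sirt1KO Otx2KD, Sirt1KO and wild-type ESC; over 5 general pluripotency genes the 12 libraries lay between 982 and 1464, and over 9 mesendoderm genes the sums were 2.80 to 3.37, 13.6 to 15.1, 7.26 to 8.41 and 15.9 to 17.2 in the order of groups above. Of the mesendoderm genes, only 1, 1, 2 and 3 averaged at least 1 FPKM in that order, so their sums rest on few genes. Trophoblast and neuroectoderm sums are in the report.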

Additional observations from a re-analysis of the deposited data

Results flagged for a closer look

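A locus with no gene name, 424 bases long, lies 3264 bases after Fgf4 on the way to Fgf15, outside the tests, and its FPKM in every Sirt1KO Otx2KD and Sirt1KO library was above that of every wild-type ESC library. It stood at 0.831, 0.670 and 1.01 FPKM in EpiLC, at 4.76, 4.08 and 2.90 in Sirt1KO Otx2KD, at 2.99, 1.87 and 2.70 in Sirt1KO, and at 0.447, 0 and 0.880 in wild-type ESC. The means were 3.91 in Sirt1KO Otx2KD and 2.52 in Sirt1KO, beside 0.442 in wild-type ESC. The difference was not tested, and at such low FPKM over so short a locus few fragments stand behind each value.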

How the results depend on the processing

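Alternatives were pseudocounts of 0.1 and 0.01, no filter, a filter of 5 FPKM, median-of-ratios scaling, quantile normalization, a fit of only the 2 groups compared, a replicate block, chromosome medians removed, an untrended and non-robust fit, and leaving out each library. Of 924 alternative values of members, 915 kept their direction and side of the threshold, 6 passed it newly and 3 changed sign. Other filters, the fit of only 2 groups, the block and the untrended fit can change the p of a difference but not its value. The same holds for leaving out a library of a group not compared. For these the direction was fixed in advance, so the 915 overstates how far direction was tested. The sign changes were Fgf17 in EpiLC against wild-type ESC (-0.021 with chromosome medians removed, and -0.027 to 0.14 over libraries left out, lowest without wild-type ESC replicate 3) and Fgf15 in Sirt1KO Otx2KD against wild-type ESC (-0.12 to 0.057 over libraries left out). Neither was called. In Sirt1KO against wild-type ESC with chromosome medians removed, Crk became 0.18 and Glg1 -0.030, as their chromosomes' medians are subtracted there. Fgf5 in Sirt1KO Otx2KD against wild-type ESC was called with pseudocounts of 0.1 (0.95) and 0.01 (1.23), in the fit of only these groups (adjusted p = 0.0379) and without Sirt1KO replicate 1 (adjusted p = 0.0333). Fgf10 in EpiLC was no longer called under quantile normalization (adjusted p = 0.0610), and the fall of Otx2 in Sirt1KO Otx2KD against wild-type ESC was called in the fit of only these groups (adjusted p = 0.0198) and without Sirt1KO replicate 1 or 3; the cause was not tested. Member calls over all alternatives were 6 to 8 in EpiLC, 5 to 6 in Sirt1KO and 4 to 5 in Sirt1KO Otx2KD, each against wild-type ESC, and 7 throughout in Sirt1KO Otx2KD against Sirt1KO. Replicate numbers did not pair the libraries: deviations of same-numbered libraries correlated at -0.107 to 0.170 and those of different numbers at -0.184 to 0.201, and 5 of 12 libraries were closest to their own number. With the replicate block, 6, 5, 7 and 4 members and 9080, 7893, 7567 and 6500 loci were called in EpiLC and Sirt1KO against wild-type ESC and in Sirt1KO Otx2KD against Sirt1KO and wild-type ESC, and the block changed no call of a member. Low values limit Fgf8, Fgfr3 and Fgfr4, for which differences at these levels may not be detectable.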

Other observations

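Of 13 other FGF ligands under the filter on low values, 7 were called in at least 1 comparison in the fit without that filter (Fgf1, Fgf7, Fgf9, Fgf14, Fgf18, Fgf21 and Fgf23). Of these, Fgf1, Fgf18, Fgf21 and Fgf23 are described here, chosen after their values were seen. The share of all 18586 loci of that fit called in at least 1 comparison is not given here, so the count has no background. Single comparisons of the main fit called 53.9% to 74.6% of loci. Fgf18 lies on chromosome 11 and was called only in Sirt1KO against wild-type ESC (-0.67 ± 0.18). The median of the tested loci of that chromosome was -0.49 there. Fgf1, which binds all FGF receptors, stood at 1.04 ± 0.0913 FPKM in EpiLC, 0.0503 ± 0.0507 in Sirt1KO Otx2KD, 0.0562 ± 0.0493 in Sirt1KO and 0.169 ± 0.0388 in wild-type ESC. Its log2 difference in EpiLC against wild-type ESC was 0.80 ± 0.06 (limma, adjusted p = 1.41e-07). Fgf21, a hormone-like ligand of metabolism, stood at 0.960 ± 0.0545, 0.697 ± 0.172, 0.347 ± 0.0955 and 0.177 ± 0.0767 FPKM in the same order, with a difference of 0.74 ± 0.09 in EpiLC (adjusted p = 1.39e-05) and 0.52 ± 0.09 in Sirt1KO Otx2KD (adjusted p = 5.16e-04), each against wild-type ESC. Fgf23, a hormone of phosphate balance, stood at 0.0230 ± 0.0399, 0.726 ± 0.277, 0.107 ± 0.103 and 0.796 ± 0.152 FPKM. It fell in EpiLC (-0.81 ± 0.11, adjusted p = 4.16e-05) and Sirt1KO (-0.70 ± 0.11, adjusted p = 2.02e-04) against wild-type ESC and was higher in Sirt1KO Otx2KD than in Sirt1KO (0.63 ± 0.11, adjusted p = 4.95e-04).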
